A study of Mus musculus with 22 samples.

Results

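The genes described here encode the nuclear subunits of the mitochondrial respiratory chain, followed through cardiac fibroblasts and cardiomyocytes of the mouse heart. They were picked by a rule on symbols that takes in no measured value, though the rule was chosen with earlier results of these data known. It took every gene whose symbol starts with Ndufa, Ndufb, Ndufc, Ndufs, Ndufv, Uqcr or Atp5, or with Cox4 to Cox8 and then a letter, together with Sdha, Sdhb, Sdhc, Sdhd and Cyc1. This gave 93 of the 23359 genes in the deposited table. Of these, 83 encode subunits: 36 of complex I, 4 of complex II, 9 of complex III, 19 of complex IV (Ndufa4 and its paralog Ndufa4l2 counted here) and 15 of complex V. The other members share a prefix only. They are 7 assembly factors of complex I (Ndufaf), Atp5s and Atp5sl, which are not subunits, and Cox7a2l, a factor that joins complexes III and IV.

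The study measured poly-A RNA of cardiac fibroblasts in 7 conditions and of cardiomyocytes in 1, all from male wild type C57BL/6 mice of 10 to 14 postnatal weeks, so that every group shares sex, genotype, strain and age range. Sedentary fibroblasts and sedentary cardiomyocytes had 3 libraries each. Fibroblasts from hearts under transverse aortic constriction (TAC, a band on the aorta that raises the pressure the heart works against) had 3 libraries at 3 days and 3 at 10 days, with 2 libraries from 3 day sham operations. Fibroblasts taken 5 days after myocardial infarction (MI) had 2 libraries, and those from mice that swam for 4 days or for 10 days had 3 each. The labels do not say whether libraries of 1 group were made from different animals or pools, so every p-value here reflects only the spread between the libraries, which may be technical.

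Complexes I and II pass electrons from NADH and succinate into the chain, complex III hands them to cytochrome c, complex IV reduces oxygen, and complex V makes ATP from the proton gradient that complexes I, III and IV build. Apart from complex II, each complex joins nuclear subunits to a few encoded in mitochondrial DNA, so cells have to coordinate both genomes. Heart muscle is among the tissues richest in mitochondria. It uses muscle isoforms of some complex IV subunits (Cox6a2, Cox7a1, Cox8b), called heart muscle forms here, while many other tissues use the liver-type forms (Cox6a1, Cox7a2, Cox8a).

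The promoters of 73 of the 93 members were found in RefSeq (GRCm38.p6), 66 of them of subunits, and the 250 bases before each start were searched on both strands for 4 motifs. The NRF1 motif lay in 13 of 66 subunit promoters, 19.7%, against 4.23% of the 27025 promoters of all genes. The ETS motif CCGGAAG, read by factors such as GABPA, lay in 12, 18.2% against 7.83%. AANATGGCG (YY1) was found in 3 (4.55% against 1.29%) and TCAAGGTCA (estrogen-related receptors) in 1 (1.52% against 0.422%). A match is a description of letters and not a site of binding. Of the 73 members with a promoter, 27 held any of the 4 motifs. Promoters of 4 members whose levels are described below are shown: the housekeeping form Cox6a1 and the complex II anchor Sdhd, with both the NRF1 and the ETS motif, and the heart muscle forms Cox7a1 and Cox8b, with none of the 4 motifs in this window. The ubiquitous partners Cox7a2 and Cox8a hold none of them either. Each line runs 5' to 3' on the gene's strand, and capitals mark a stretch that matches the NRF1 motif (10 bases) or the ETS motif (7 bases).
Cox6a1, chr5:115348959-115349208, minus strand: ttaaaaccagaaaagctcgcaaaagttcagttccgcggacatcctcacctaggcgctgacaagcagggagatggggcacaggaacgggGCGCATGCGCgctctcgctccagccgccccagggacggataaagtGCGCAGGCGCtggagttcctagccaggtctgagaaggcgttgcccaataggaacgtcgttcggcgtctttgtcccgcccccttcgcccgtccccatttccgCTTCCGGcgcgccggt
Sdhd, chr9:50603850-50604099, minus strand: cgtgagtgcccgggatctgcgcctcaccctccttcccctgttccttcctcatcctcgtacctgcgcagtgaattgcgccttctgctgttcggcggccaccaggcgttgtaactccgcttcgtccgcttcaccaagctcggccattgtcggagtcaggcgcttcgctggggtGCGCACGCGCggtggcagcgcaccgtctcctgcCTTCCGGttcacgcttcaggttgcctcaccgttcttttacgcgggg
Cox7a1, chr7:30183921-30184170, plus strand: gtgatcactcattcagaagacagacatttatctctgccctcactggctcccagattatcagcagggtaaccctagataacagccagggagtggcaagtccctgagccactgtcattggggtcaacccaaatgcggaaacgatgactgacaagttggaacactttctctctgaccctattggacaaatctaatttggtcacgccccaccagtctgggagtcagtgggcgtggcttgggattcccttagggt
Cox8b, chr7:140900447-140900696, minus strand: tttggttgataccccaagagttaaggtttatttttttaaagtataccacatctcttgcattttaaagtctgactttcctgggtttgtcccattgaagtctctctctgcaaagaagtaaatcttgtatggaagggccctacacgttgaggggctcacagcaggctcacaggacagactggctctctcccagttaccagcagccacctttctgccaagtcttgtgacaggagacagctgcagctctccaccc

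Levels are FPKM, fragments divided by transcript length and by the mapped fragments of the library. A trend on transcript length remained in every library, described with the length results. Levels of genes of unlike length are therefore compared only with that limit. The summed FPKM of a library ranged from 85128 to 205139, relative depth spanned 1.0 to 3.55 with the absolute depth unknown, and 6568 to 7868 genes reached FPKM 1. That sum was 85128 to 119382 in sedentary, sham and MI fibroblasts, 138408 to 205139 in TAC and swim fibroblasts and 179556 to 198271 in cardiomyocytes. The part of this split in the subunit levels was not tested. Cardiomyocyte markers, 17 in all, summed to 18100 to 23100 FPKM in the cardiomyocytes and to 65.4 to 952 in the fibroblast libraries. The 11 fibroblast markers summed to 1030 to 3870 in fibroblasts and to 130 to 310 in cardiomyocytes. The markers thus separate the labelled cell types, while neither preparation was free of the markers of the other. In such bulk RNA, fewer cells of a type and less RNA per cell cannot be told apart. Of the 13 subunits encoded in mitochondrial DNA, 0 are among the table's genes, so they are not analysed here.

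All 83 subunits together took 0.976%, 1.05% and 1.35% of the summed FPKM in the 3 sedentary fibroblast libraries, and 18.4%, 18.4% and 20.7% in the 3 cardiomyocyte libraries. Their summed level was 1152 ± 408 FPKM (SD, n = 3) in sedentary fibroblasts, 1165 ± 82.0 (n = 2) after sham operation and 1327 ± 70.7 (n = 2) after MI. It was 4866 ± 908 at 3 days and 4963 ± 1324 at 10 days of TAC, 4651 ± 1361 at 4 days and 3122 ± 320 at 10 days of swimming (SD, n = 3 each), and 36830 ± 3912 (n = 3) in cardiomyocytes. The fibroblast libraries thus fell into 2 ranges with no overlap, 830.5 to 1610 FPKM for sedentary, sham and MI and 2915 to 6482 for TAC and swimming, all below the lowest cardiomyocyte library at 33060. Over sedentary fibroblasts, the mean ratio was 4.23 at 3 days of TAC, 4.31 at 10 days, 4.04 at 4 days of swimming, 2.71 at 10 days, 1.15 after MI and 32.0 in cardiomyocytes.

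**Figure D1:**
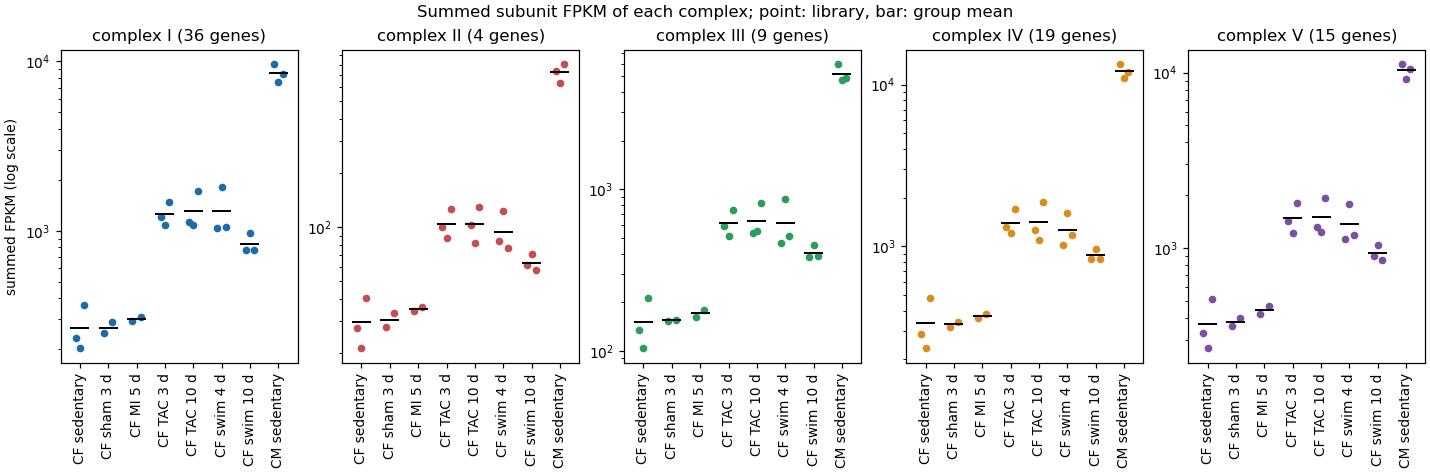
Summed FPKM of the subunits of each complex (1 panel per complex, log axis) in every library, with points for libraries and a bar for the group mean; CF, cardiac fibroblasts, CM, cardiomyocytes. In each of the 5 complexes the TAC and swim libraries lie above the sedentary, sham and MI libraries and below the cardiomyocytes.

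The 5 complexes moved by similar factors. At 10 days of TAC the summed level was 4.90 times that of sedentary fibroblasts for complex I, 3.52 for complex II, 4.22 for complex III, 4.24 for complex IV and 4.05 for complex V. In cardiomyocytes the ratios were 32.0, 24.4, 34.4, 36.3 and 27.7. Complex II, the smallest complex and also an enzyme of the citric acid cycle, had the lowest ratio in both. Its transcripts are also the longest, at a median of 2065.5 bases against 610 to 1363 in the others. These ratios are not corrected for length. In the length-corrected values described below, complex IV had the lowest median log2 difference at 10 days of TAC. Levels within a complex were uneven, and these too are not corrected for length. In complex I of cardiomyocytes, mean levels ran from 923.5 FPKM for the accessory subunit Ndufb8 to 39.49 for Ndufa11, leaving aside Ndufs5, whose values are uncertain. The median of the 36 subunits was 184.6 FPKM. In complex III, the small subunits Uqcrq (1249 FPKM) and Uqcrh (942.6) stood above the core subunit Uqcrc2 (149.2).

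**Figure D2:**
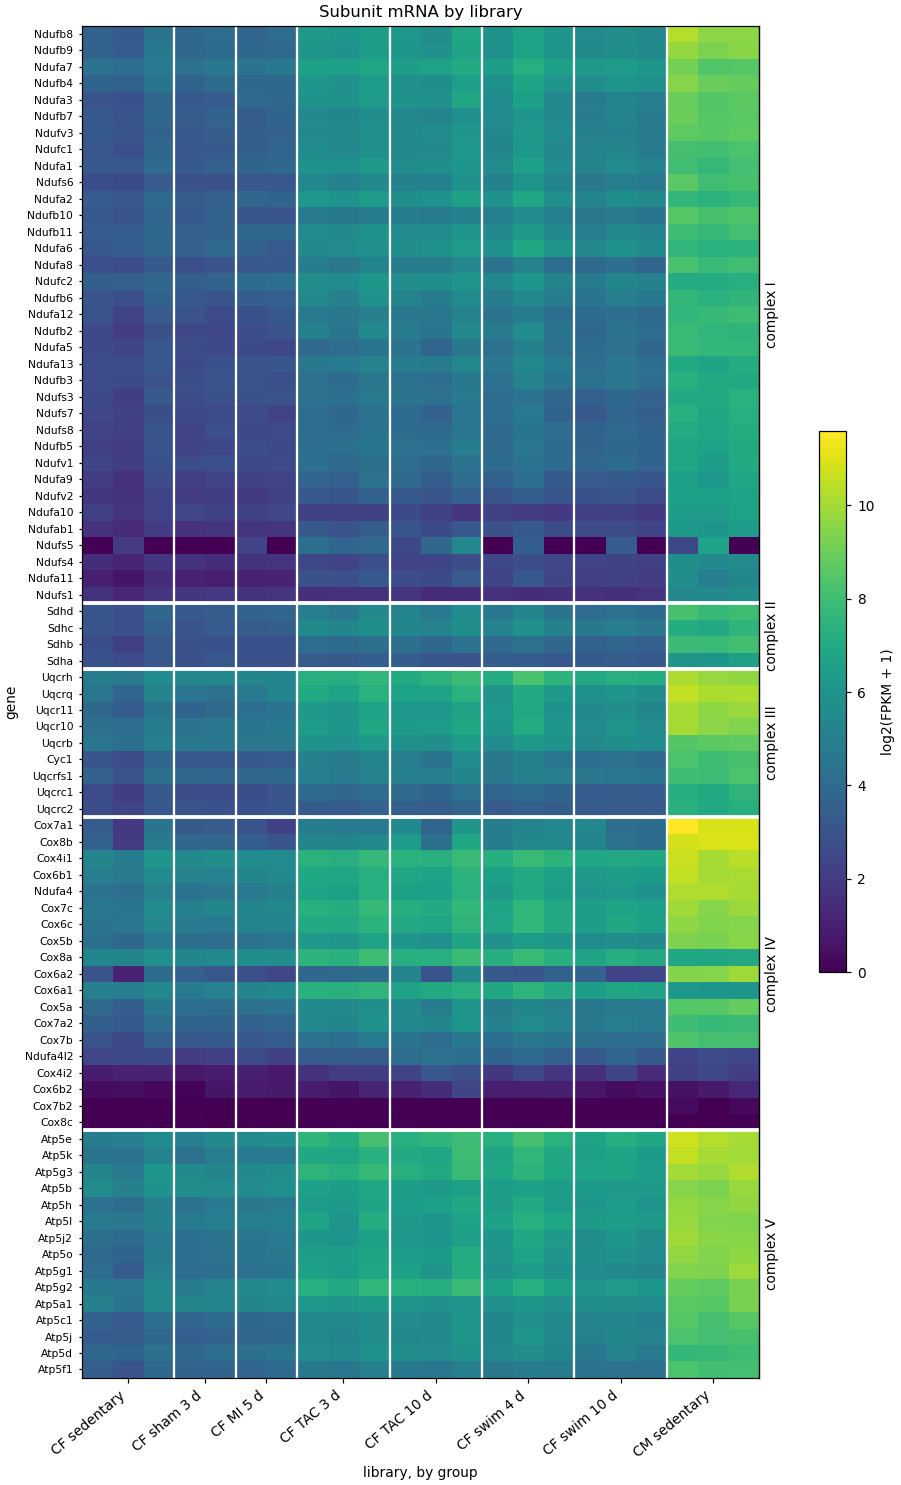
Level of 82 of the 83 subunits (rows, grouped by complex) in each of the 22 libraries (columns, grouped by condition), as log2(FPKM + 1). The 3 cardiomyocyte columns are highest in nearly every row, the TAC and swim columns intermediate, and Cox7b2 and Cox8c are at or near 0 throughout.

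The first comparison asks how the 2 cell types differ at rest. Differences were tested with limma on log2(FPKM + 1) with Benjamini-Hochberg adjustment over all genes tested, and called at an adjusted p under 0.05. Of the 91 members tested between sedentary cardiomyocytes and sedentary fibroblasts, 88 were higher in cardiomyocytes and 0 lower, with a median log2 difference of 4.56. Over all 10371 genes tested the median was -0.05, with 38.7% called higher and 38.6% called lower. The authors' deposited table calls 86 members higher and 0 lower. By complex, 35 of 36 subunits of complex I were higher (median 4.51), 4 of 4 of complex II (4.41), 9 of 9 of complex III (4.78), 15 of 17 tested of complex IV (4.85) and 15 of 15 of complex V (4.70). The 7 assembly factors of complex I were all higher too, with a smaller median of 2.17.

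The heart muscle isoforms of complex IV had the largest differences. Cox7a1 measured 9.408, 2.827 and 21.04 FPKM in the 3 sedentary fibroblast libraries and 3079, 1913 and 1900 in cardiomyocytes, a log2 difference of 7.87 ± 0.571 (SE, limma adjusted p = 8.98e-10). Cox8b measured 11.13, 3.067 and 27.29 FPKM against 1796, 1984 and 1983 (7.43 ± 0.601, limma adjusted p = 4.93e-09). Cox6a2 measured 7.433, 1.132 and 16.35 FPKM against 683.2, 706.5 and 937.2 (6.82 ± 0.634, limma adjusted p = 3.64e-08). In each case the cardiomyocyte libraries lie far above all fibroblast libraries, and the sedentary fibroblast libraries differ among themselves in the same order for all 3 genes, library 3 highest and library 2 lowest. The next largest difference was that of Ndufb8 (6.04) and then came Uqcrq (5.73), a small subunit of complex III.

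The ubiquitous partners of these isoforms differed far less. Cox6a1 measured 32.05, 30.03 and 40.53 FPKM in sedentary fibroblasts and 72.59, 66.1 and 67.28 in cardiomyocytes, a log2 difference of 0.995 ± 0.202 (limma adjusted p = 0.000173). It was -0.13 against the mean of the 7 fibroblast groups (limma adjusted p = 0.461), and -0.05 in values freed of each library's trend on transcript length and GC content, described with the length results. Cox8a measured 37.79 to 55.02 FPKM against 110.1 to 128.2 (1.42 ± 0.22, limma adjusted p = 7.78e-06), and its difference from the mean of the 7 fibroblast groups was 0.29 (limma adjusted p = 0.116). Cox7a2 measured 8.671 to 17.08 FPKM against 219.4 to 251.7, a difference of 4.24 on the log2 scale, near the median of all members. Cox6a2 accounted for 91.7% of the Cox6a pair in cardiomyocytes and 17.1% in sedentary fibroblasts, Cox7a1 for 90.3% and 42.4% of the Cox7a pair, and Cox8b for 94.2% and 21.0% of the Cox8 pair.

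**Figure D3:**
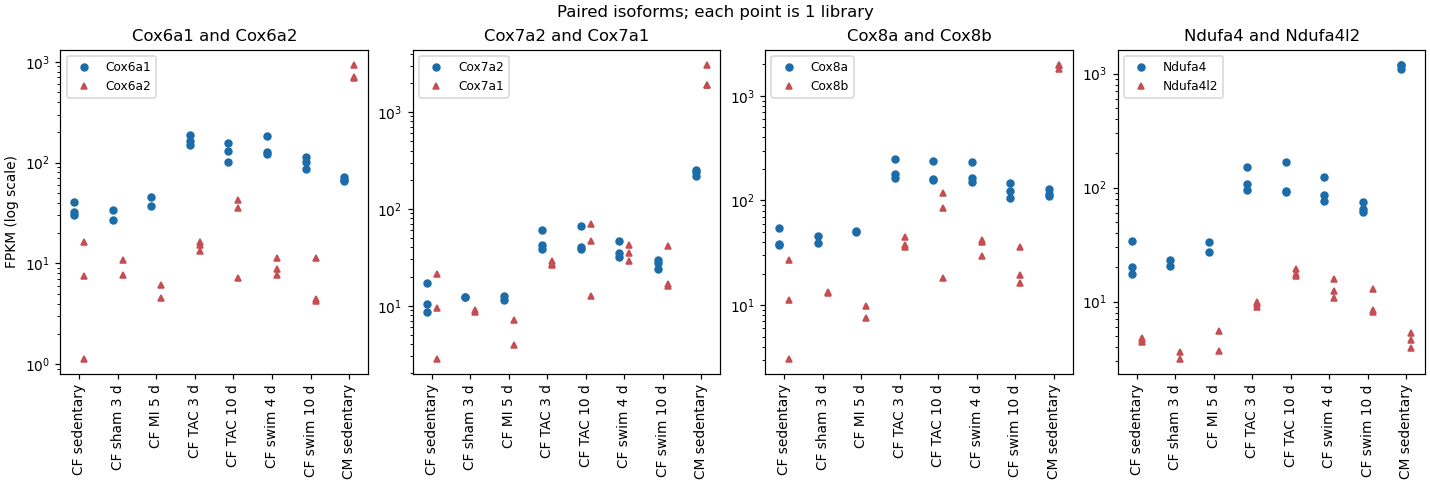
FPKM (log axis) of 4 isoform pairs of complex IV in every library, Cox6a1 and Cox6a2, Cox7a2 and Cox7a1, Cox8a and Cox8b, Ndufa4 and Ndufa4l2; CF, cardiac fibroblasts, CM, cardiomyocytes. The heart muscle forms exceed 650 FPKM in cardiomyocytes, while Cox6a1 and Cox8a lie higher in the TAC and 4 day swim fibroblasts than in cardiomyocytes.

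Other tissue-restricted isoforms stayed low. Cox4i2, the oxygen-responsive alternative to Cox4i1, measured 0.8902 to 1.205 FPKM in sedentary fibroblasts and 3.236 to 4.463 in cardiomyocytes, while Cox4i1 measured 29.01 to 64.86 and 1075 to 1604. Cox6b2, known as a testis form, stayed under 1.5 FPKM in both, against 25.3 to 46.83 and 1046 to 1456 for Cox6b1. Cox8c was listed at 0 in every library but 1 of the sham operation (0.05191 FPKM), and Cox7b2 reached at most 0.2686 FPKM. Ndufa4l2, a hypoxia-inducible paralog of Ndufa4, measured 4.47 to 4.8 FPKM in sedentary fibroblasts and 3.97 to 5.30 in cardiomyocytes, a log2 difference of -0.01 ± 0.18 (limma adjusted p = 0.959), which was -0.90 in the length-corrected values (limma adjusted p = 4.57e-05). Ndufa4 itself rose by 5.59 on the log2 scale, to between 1086 and 1197 FPKM.

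The catalytic cores were higher in cardiomyocytes too, several of them by less than the members' median. Among 6 core subunits of complex I, the Fe-S subunits Ndufs1, Ndufs3, Ndufs7 and Ndufs8 and the flavoprotein subunits Ndufv1 and Ndufv2, the log2 differences between the cell types ran from 3.88 to 4.69. Ndufs1, which carries electrons through several iron-sulfur clusters, measured 1.536 to 2.562 FPKM in sedentary fibroblasts and 40.83 to 50.42 in cardiomyocytes. The succinate-binding flavoprotein Sdha measured 5.241 to 7.791 FPKM against 65.24 to 95.76 (3.34), and its partner Sdhb rose more, by 5.17. In complex III the Rieske protein Uqcrfs1 (4.44) and cytochrome c1, Cyc1 (5.01), and in complex V the catalytic Atp5b (3.98) and Atp5a1 (3.81), were all higher in cardiomyocytes. Atp5d and Ndufs7 carry the same merged span of chromosome 10 in the table, so their levels may not be independent. Several small subunits have processed pseudogenes in the genome, and how shared reads were assigned is not given in the sources used here, which leaves their exact levels uncertain.

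Ndufs5, an accessory subunit of complex I, has values that cannot be relied on. Its FPKM was listed under 0.01 in 10 of 22 libraries, among them cardiomyocyte library 3, while cardiomyocyte libraries 1 and 2 gave 4.67 and 100.7. The fit gave it the largest difference of all members at 3 and 10 days of TAC (4.02 and 3.20 on the log2 scale), which rests on these values near 0. It is counted among the members tested and not described further.

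Under pressure overload, the FPKM of nearly every subunit was higher in the fibroblast libraries. Of the 86 members tested among fibroblast libraries, 78 were higher at 3 days of TAC than after sham operation and 0 lower, against 31.3% and 25.8% of all 9425 genes. The members' median log2 difference was 1.85 and that of all genes 0.05. At 10 days of TAC against sedentary fibroblasts, 82 of 86 were higher and 0 lower (median 1.92), against 38.8% and 27.0% of all genes (median 0.12). The authors' deposited table calls 76 and 82 members higher in these comparisons and 0 lower. With every library scaled to the same summed FPKM, which shifts the median of all genes by -0.415 at 3 days and -0.479 at 10 days, the counts were 76 higher and 1 lower at 3 days and 79 higher and 2 lower at 10 days. Over all genes, this scaling gave 20.5% higher and 38.8% lower at 3 days, and 24.6% higher and 43.5% lower at 10 days.

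Ndufs5 aside, the largest rises included small accessory subunits of complex I and the membrane ring of complex V. Ndufa3 measured 7.275, 6.614 and 14.11 FPKM in sedentary fibroblasts and 60.06, 55.72 and 116.6 at 10 days of TAC, a log2 difference of 2.91 ± 0.326 (limma adjusted p = 2.38e-06). Ndufa2, which has a thioredoxin-like fold, followed with 2.61. Atp5g2, which encodes the c-ring subunit through which protons pass, measured 24.85, 22.56 and 40.5 FPKM against 162.2, 149.7 and 230.7 (2.61 ± 0.258, limma adjusted p = 1.26e-06). For both genes with values listed, every TAC library lies above every sedentary library, and TAC library 3 is highest. At 3 days against sham operation, Ndufa3 was again among the largest rises (58.14 to 82.22 FPKM against 8.738 and 9.41, log2 difference 2.73 ± 0.365, limma adjusted p = 1.36e-05).

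The c-ring is encoded by 3 genes with the same mature protein, Atp5g1, Atp5g2 and Atp5g3. At 10 days of TAC they rose by 2.42, 2.61 and 2.02 on the log2 scale. Elsewhere in complex V, the catalytic subunit Atp5b rose less, from 46.57, 32.16 and 61.68 FPKM to 86.72, 76.4 and 96.06 (0.91 ± 0.195, limma adjusted p = 0.000633), and Atp5a1 by 0.96, whereas Atp5c1, the central stalk, rose by 1.99. Within complex III the hinge protein Uqcrh rose by 2.40 and the core protein Uqcrc2 by 0.83. These values are not corrected for transcript length, whose part in them was not tested. Atp5b (1916 bases) and Atp5a1 (2471) have longer transcripts than Atp5g2 (731) and Atp5g3 (718), and Uqcrc2 (1896) than Uqcrh (547). The transcript of Atp5g1 is longer still, at 2656 bases.

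Complex II shows the unevenness within a single complex. Its membrane anchor Sdhc measured 7.417, 6.188 and 10.81 FPKM in sedentary fibroblasts and 38.87, 33.73 and 52.86 at 10 days of TAC (log2 difference 2.24 ± 0.239, limma adjusted p = 1.94e-06). The other anchor, Sdhd, rose by 1.96 and the iron-sulfur subunit Sdhb by 1.43. Sdha measured 6.66, 5.241 and 7.791 FPKM against 10.11, 7.504 and 6.847, overlapping groups with a log2 difference of 0.27 ± 0.173 (limma adjusted p = 0.173). Ndufs1 did not pass the test either, at 2.206, 1.536 and 2.562 FPKM against 2.364, 1.648 and 1.793 (-0.07 ± 0.135, limma adjusted p = 0.645), and neither did Ndufa10 (0.11). In the length-corrected values, Sdha was higher by 0.59 (limma adjusted p = 0.00583) and Ndufs1 by 0.36 (limma adjusted p = 0.00981). With libraries scaled to the same sum, Ndufs1 was lower by 0.65 on the log2 scale (limma adjusted p = 0.00447).

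In complex IV, all 17 tested members were higher at 10 days of TAC. Cox4i1, the largest nuclear-encoded subunit of complex IV, rose by 2.12, Cox5b by 1.91 and Cox6b1 by 1.91. Cox6a1 measured 32.05, 30.03 and 40.53 FPKM in sedentary fibroblasts, 164.8, 150.9 and 188.7 at 3 days and 100.5, 131.5 and 155.7 at 10 days of TAC (1.88 ± 0.212 at 10 days, limma adjusted p = 2.43e-06). These TAC levels exceed the 66.1 to 72.59 FPKM of cardiomyocytes. Cox8a likewise reached 155.7 to 249.5 FPKM under TAC. Leaving aside the 3 heart muscle isoforms, Ndufs5 and the 5 subunits under 5 FPKM in cardiomyocytes, the 74 other subunits were set against their cardiomyocyte mean, and Cox6a1 and Cox8a were the only 2 above it in the TAC and 4 day swim libraries.

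Cardiomyocyte RNA in the fibroblast preparations was measured beside these values. The median of these 74 subunits stood at 2.45% to 4.9% of its cardiomyocyte mean in sedentary fibroblasts and at 10.6% to 17.2% in TAC libraries. Myh6, the cardiac myosin heavy chain, stood at 0.642% to 3.33% in sedentary libraries and at 0.428% to 3.03% under TAC. Other cardiomyocyte genes were higher in 2 of the 10 day TAC libraries. Libraries 1, 2 and 3 at 10 days held 2.15%, 0.777% and 2.48% of the cardiomyocyte mean of Tnnt2 (troponin T), against 0.228% to 1.3% in sedentary libraries. They held 2.83%, 0.598% and 2.81% for Mb (myoglobin), against 0.204% to 1.85%. For Ckm (muscle creatine kinase) they held 3.64%, 1.47% and 3.39%, against 0.264% to 1.79%, and for Actc1 (cardiac actin) 7.65%, 2.75% and 11.1%, against 1.12% to 4.55%. Libraries 1 and 3 thus lie above every sedentary library in these 4 genes, while library 2 and the 3 day TAC libraries lie inside the sedentary range. All 17 cardiomyocyte markers summed to 222, 65.4 and 417 FPKM in the sedentary libraries, 258, 277 and 237 at 3 days of TAC and 761, 221 and 952 at 10 days, with Ttn under 0.05 FPKM in every TAC library. The subunits summed to 4351, 4056 and 6482 FPKM in the 3 libraries of 10 day TAC. At 3 days of TAC the mean of Myh6 was 2.356 FPKM, against 12.23 after sham operation. The means of Tnnt2 and Mb were lower there too, and those of Ckm, Actc1, Myl3 and Fabp3 higher. None of these marker values is corrected for transcript length, whose part in them was not tested. The part of cardiomyocyte RNA in the subunit levels was not tested.

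The heart muscle isoforms behaved otherwise. At 10 days of TAC, Cox7a1 measured 46.37, 12.59 and 69.07 FPKM, Cox8b 84.0, 18.2 and 117.9, and Cox6a2 35.67, 7.172 and 42.71, with library 2 lowest each time and overlapping the sedentary libraries. They passed the test (log2 differences of 1.89, 2.37 and 1.80 with limma adjusted p of 0.0114, 0.00446 and 0.027) but not in the length-corrected values (limma adjusted p of 0.283, 0.11 and 0.296). At 3 days none of the 3 passed (limma adjusted p of 0.0606, 0.0849 and 0.477), though all did in a fit of these 2 groups alone (0.00071, 0.000978 and 0.0318). At 10 days such a fit of the 2 groups ended all 3 calls (limma adjusted p of 0.097, 0.0786 and 0.165). Leaving out TAC library 3 (limma adjusted p = 0.0635) or sedentary library 2 (0.0557) also ended the call of Cox7a1. That of Cox6a2 was lost without TAC library 1 (limma adjusted p = 0.099), TAC library 3 (0.117) or sedentary library 2 (0.138, log2 difference 0.96), and with libraries scaled to the same sum (0.0736). Across the 19 fibroblast libraries, the genes most alike to Cox6a2 in log2(FPKM + 1) were Fabp3 (Pearson r = 0.979), Myl3 (0.95) and Ckm (0.949), those most alike to Cox7a1 were Hopx (0.969), Cox8b (0.967) and Mdh1 (0.945), and those most alike to Cox8b were Cox7a1 (0.967), Myl1 (0.963) and Tmem38a (0.961). Libraries of the same preparation share depth and composition, and these values are descriptions.

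**Figure D4:**
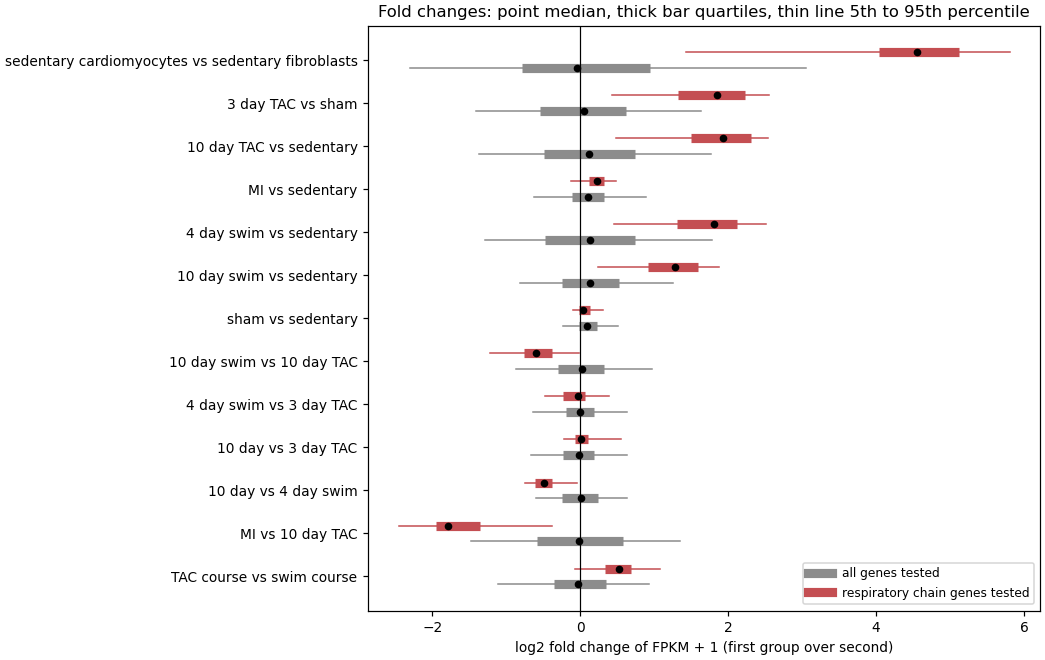
Distribution of log2 differences for the members and for all genes tested, in each comparison; the dot is the median, the thick bar the quartiles and the thin bar the 5th to 95th percentiles. The members' median lies between 1.29 and 1.92 in the 4 comparisons of TAC or swimming with their controls, and near 0 for sham and MI against sedentary fibroblasts.

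Swimming gave the same kind of rise. After 4 days, 80 of 86 members were higher than in sedentary fibroblasts and 0 lower (median 1.81), against 38.2% and 26.3% of all genes (median 0.13). After 10 days, 76 were higher and 0 lower (median 1.29), against 30.0% and 13.6% of all genes (median 0.14). The authors' deposited table calls 75 and 70 members higher and 0 lower. The 17 cardiomyocyte markers summed to 243, 176 and 299 FPKM after 4 days and 344, 119 and 129 after 10 days, inside the range of the sedentary libraries. These sums are not corrected for transcript length. Scaling the libraries to the same sum, which shifts the median of all genes by -0.864 after 4 days and -0.493 after 10 days, left 64 higher and 4 lower after 4 days and 56 higher and 1 lower after 10 days. Over all genes, this scaling gave 14.5% higher and 55.4% lower after 4 days, and 11.7% higher and 34.6% lower after 10 days. The swim comparisons and those of 10 day TAC and MI share the same sedentary libraries.

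Ndufa6, an accessory subunit of complex I of the LYR protein family, was the largest rise in both. It measured 8.26, 9.907 and 13.26 FPKM in sedentary fibroblasts, 58.21, 121.2 and 62.96 after 4 days and 40.4, 58.67 and 45.6 after 10 days of swimming. The log2 differences were 2.78 ± 0.268 (limma adjusted p = 9.51e-07) and 2.11 ± 0.268 (limma adjusted p = 3.34e-05), with every swim library above every sedentary library. Uqcrh rose by 2.55 and 2.09, and Ndufa2 by 2.70 and 1.99. Cox6a1 rose to between 121.1 and 185.6 FPKM after 4 days. Sdha differed by 0.45 after 4 days (limma adjusted p = 0.0314) and by 0.39 after 10 days (limma adjusted p = 0.0804). The first was -0.51 with libraries scaled to the same sum (limma adjusted p = 0.0189), and its call was lost without swim library 1 or 2 or sedentary library 1 or 2 (limma adjusted p of 0.0583 to 0.134). Cox6a2 measured 8.73, 7.604 and 11.25 FPKM after 4 days, inside the sedentary range, and did not pass the test in either group.

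After MI no member passed the test against sedentary fibroblasts. Limma called 0 higher and 0 lower at a median log2 difference of 0.22, with 1 higher and 0 lower at an unadjusted p under 0.05, and the authors' deposited table calls 0. Over all genes, 8.93% were higher and 2.34% lower, with a median of 0.11. In the length-corrected values, Atp5g2 passed (42.92 and 48.18 FPKM against 22.56 to 40.5, log2 difference 0.64, limma adjusted p = 0.0365), where 12.6% of all genes were higher. Sham operation against sedentary fibroblasts gave 0 calls in limma, 0 at an unadjusted p under 0.05 and 0 in the authors' deposited table, with 0.0212% of all genes higher and 0.0% lower.

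The MI libraries differed from those of 10 day TAC as the sedentary ones did. Of 86 members, 79 were lower after MI and 0 higher (median -1.79), against 30.1% lower and 27.1% higher over all genes. The largest falls were those of Cox8b (9.922 and 7.53 FPKM against 84.0, 18.2 and 117.9, log2 difference -2.59 ± 0.712, limma adjusted p = 0.00661), Ndufa6 (11.38 and 9.06 against 50.27, 60.7 and 81.69, -2.52 ± 0.299, limma adjusted p = 9.61e-06) and Cox7a1 (-2.50). Without MI library 2 the calls of Cox8b (limma adjusted p = 0.0507) and Cox7a1 (0.0581) were lost, the remaining MI library being taken to vary like the other groups. In the length-corrected values 70 members were lower, against 23.7% of all genes, and Cox8b, Cox7a1 and Cox6a2 were among those that no longer passed.

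Pressure overload and swimming were then set against each other. At 4 days of swimming against 3 days of TAC, limma called 0 members in either direction (median -0.04), with 3 higher and 1 lower at an unadjusted p under 0.05, and the authors' deposited table calls 0. Over all genes 5.2% were higher and 3.66% lower. At 10 days the groups differed: 23 members were lower in swimming and 0 higher (median -0.60), against 13.2% lower and 10.9% higher over all genes, and the authors' deposited table calls 36 lower. Atp5g2 measured 65.54, 83.58 and 67.26 FPKM in 10 day swim libraries and 162.2, 149.7 and 230.7 in 10 day TAC (-1.30 ± 0.258, limma adjusted p = 0.00217). Ndufa3 (-1.24) and Atp5g1 (-1.15) followed, and for these 3 genes the groups did not overlap. The count rests on few libraries, since it was 6 without swim library 1, without swim library 3 or without TAC library 3. The call of Ndufa3 was lost without swim library 1 or TAC library 3 (limma adjusted p of 0.0616 and 0.0848), and that of Atp5g1 without swim library 3 or TAC library 3 (0.0788 and 0.113).

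Within each stimulus, few members were called as different between the times. From 3 to 10 days of TAC, 2 members were higher and 0 lower, against 4.42% and 2.18% of all genes. Ndufa4l2 measured 3.15 and 3.64 FPKM after sham operation, 9.04, 9.85 and 9.59 at 3 days of TAC and 16.84, 19.33 and 17.63 at 10 days (10 against 3 days, log2 difference 0.85 ± 0.185, limma adjusted p = 0.00933). The other was Cox6b2 (0.78, limma adjusted p = 0.0496), at most 4.277 FPKM in any library, whose call was lost in several alternatives. From 4 to 10 days of swimming, limma called 0 members (median -0.48), with 0 higher and 31 lower at an unadjusted p under 0.05, and the authors' deposited table calls 0. Over all genes 0.0106% were higher and 0.308% lower at an adjusted p under 0.05. A negative difference was found for 82 of the 86 members, while the median of all genes was 0.009. With the length and GC trend removed, 78 were negative (median -0.19). With libraries scaled to the same sum, 64 were negative (median -0.105), while the median of all genes was 0.384. Genes of the same libraries vary together, so these counts are descriptions. The subunits summed to 3730, 6214 and 4009 FPKM in the 3 libraries of 4 day swim.

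Ndufa4l2 was also the clearest difference between the 2 time courses. In swimming it measured 12.34, 15.78 and 10.74 FPKM at 4 days and 8.09, 12.93 and 8.53 at 10 days, so its level did not go up as it did under TAC. The difference of the 2 courses was 1.23 ± 0.262 on the log2 scale (limma adjusted p = 0.0122), and 2 members were called higher and 0 lower, against 4.31% and 1.86% of all genes. In the length-corrected values it was 0.69 (limma adjusted p = 0.0664), and Cox7a2l was the 1 member called, against 3.44% of all genes.

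Genes with short transcripts tended to be higher under TAC and swimming, members or not, so the members were set against genes of their length. In sedentary, sham and MI fibroblasts, log2(FPKM + 1) fell with each doubling of transcript length by a slope of -0.175 to -0.295 over all genes, and in TAC, swim and cardiomyocyte libraries by -0.52 to -0.88. In all 6 groups of 3 libraries, the library with the highest summed subunit level was also the one with the steepest slope. Across the 86 members, Spearman's rho of the log2 difference with length was -0.529 at 10 days of TAC (-0.54 over 9342 genes), -0.503 at 3 days, -0.529 and -0.51 after 4 and 10 days of swimming, and -0.105 after MI. Most subunits are short, and genes of 1 library share its depth and composition, so these are descriptions across genes. Rn45s, a ribosomal RNA precursor that poly-A selection should leave out, measured 146.1 to 273.2 FPKM in sedentary and sham libraries, 119.6 and 1289 after MI, 911.1 to 6988 under TAC, 361 to 1814 in swim libraries and 756 to 2971 in cardiomyocytes. Its part in the length trend was not tested.

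**Figure D5:**
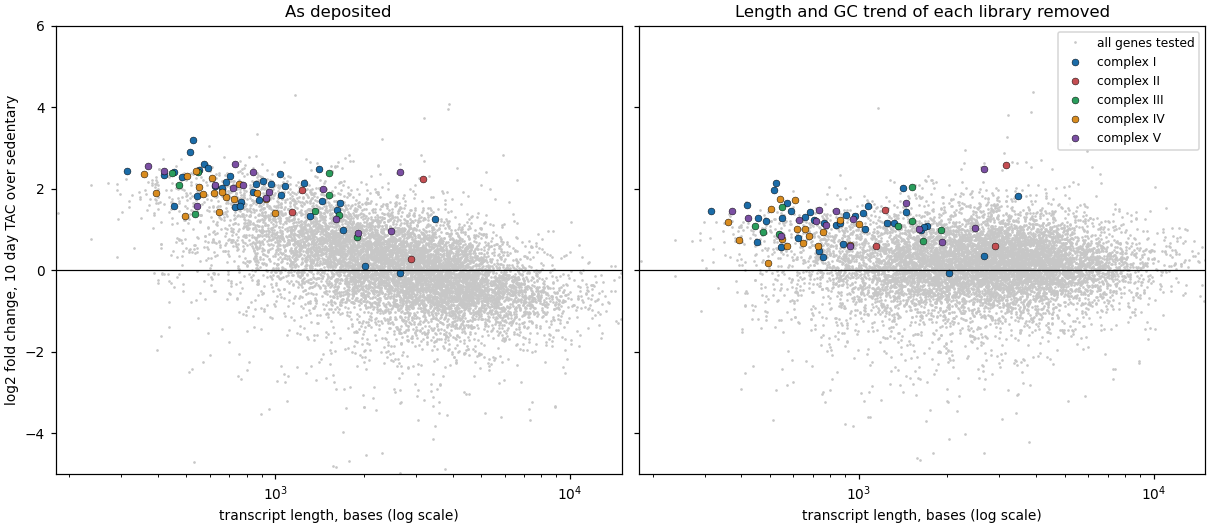
Log2 difference of 10 day TAC against sedentary fibroblasts by transcript length in bases (log axis), for the members by complex and for the other genes in grey, as deposited and after each library's smooth trend on both length and GC had been taken out. As deposited, both clouds slope down with length, with the members above the other genes, and in the corrected values the members' median is 1.15.

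Against genes of like length the members still stood higher. Under 600 bases, the 25 members had a median log2 difference of 2.37 at 10 days of TAC and the 269 other genes 1.43. From 600 to under 1000 bases the medians were 1.93 and 1.13, from 1000 to under 2000 bases 1.57 and 0.56, and from 2000 bases 0.61 and -0.18. Length-corrected values were made by fitting a smooth curve on length and GC content in each library and keeping the residuals. In them, 76 members were higher at 10 days of TAC and 0 lower (median 1.15), against 38.0% of all genes higher. At 3 days, 71 were higher and 1 lower (median 0.95), against 28.3% and 17.4%. After 4 days of swimming 72 were higher and 1 lower (median 0.92), against 37.9% and 15.3%, the lower one at both being Cox6b2. After 10 days 61 were higher and 0 lower (median 0.73), against 28.1%.

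Between the cell types the correction left 86 members higher and 2 lower (median 3.91), against 40.8% and 34.4% of all genes, the lower ones being Cox6b2 and Ndufa4l2. In the direct comparison of stimuli at 10 days, 20 were lower in swimming, against 11.8%. At the earlier time 2, Ndufa6 and Cox7a2l, were higher in swimming, against 6.05%, and from 3 to 10 days of TAC 4 were higher, against 5.01%, with Cox4i2 and Cox7a2l added. Cox4i2 measured 2.238, 3.151 and 3.452 FPKM at 3 days of TAC and 4.225, 7.844 and 6.147 at 10 days. Per complex, the corrected median at 10 days of TAC was 1.21 for complex I, 1.04 for complex II, 1.07 for complex III, 0.95 for complex IV and 1.23 for complex V. The 4 assembly factors tested had a median of 0.32.

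Other mitochondrial genes had lower medians than the 1.92 of the members at 10 days of TAC. These values are not corrected for transcript length, whose part in the difference was not tested. Of 26 tested genes for cytochrome c and for assembly factors outside the symbol rule, 20 were higher and 1 lower at 10 days of TAC, with a median of 0.68. Of 23 import factors and carriers 15 were higher and 2 lower (median 0.90), among them the ADP/ATP carrier Slc25a4 (1.87 ± 0.304, limma adjusted p = 5.68e-05) and the import subunit Tomm7 (1.88 ± 0.235, limma adjusted p = 5.24e-06). Of 13 citric acid cycle genes, 5 were higher and 1 lower (median 0.20). These counts stand beside 38.8% higher and 27.0% lower over all genes.

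Regulators of mitochondrial genes did not rise as a group: of 11 tested, 2 were higher and 5 lower at 10 days of TAC (median -0.45). Over all genes, 38.8% were higher and 27.0% lower, and neither count is corrected for transcript length. Esrra, an estrogen-related receptor, was higher by 1.22 ± 0.18 (limma adjusted p = 2.4e-05). Gabpa, which reads the ETS motif, was lower by 0.99 on the log2 scale (limma adjusted p = 0.000599), and by 0.13 in the length-corrected values (limma adjusted p = 0.488). Nrf1 did not pass the test (-0.14, limma adjusted p = 0.384). In cardiomyocytes 11 of 18 regulators were higher and 5 lower than in fibroblasts, and all 13 citric acid cycle genes were higher. The shares over all genes there were 38.7% higher and 38.6% lower.

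Other cell types' markers also moved in the fibroblast preparations, and their part in the subunit levels was not tested. The 10 endothelial markers summed to 113 to 213 FPKM in sedentary and 339 to 848 in 10 day TAC libraries, but to 152 to 206 at 3 days of TAC. The 8 pericyte and smooth muscle markers summed to 41.2 to 62.3 FPKM in sedentary libraries, 52.8 to 65.3 at 3 days of TAC and 81.4 to 83.1 at 10 days. Their sums were 28.4 to 41.9 in 4 day swim, 39.2 to 44.8 in 10 day swim, 44.6 to 51.2 in sham and 88.4 to 138 in MI libraries. The 10 macrophage and monocyte markers summed to 504 to 708 FPKM in sedentary, 656 to 1090 in TAC, 1140 to 1520 in 4 day and 796 to 1070 in 10 day swim libraries, 780 to 1690 after sham operation and 936 to 957 after MI. They lay above the sedentary range in each of these groups except 10 day TAC, which overlapped it. The 11 fibroblast markers summed to 2140 to 2730 FPKM in sedentary and 1030 to 2120 in TAC libraries, but to 2680 to 3870 in swim libraries.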

How the data were processed

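Poly-A RNA of 19 cardiac fibroblast and 3 cardiomyocyte libraries was sequenced as stranded libraries, per the labels' protocols. FPKM values on mm10 were computed by the authors with Cufflinks 2.0.2, per the submitters' processing notes. Aligner, annotation and absolute depth were not given in the sources used here. Another table deposited by the authors, from Cuffdiff, holds their p-values and q-values, of which only the calls were used, and it tests with their own filters. The 44 columns of FPKM bounds were not used. 

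All differences are on the log2(FPKM + 1) scale, which understates the change of low genes, and come from limma 3.58.1 in R 4.3.3 (trended, robust), for genes at FPKM 1 or more in at least 2 libraries. The 19 fibroblast libraries were fitted together (9425 genes), and all 22 for the comparison of cell types (10371 genes). P-values were adjusted over all genes tested by Benjamini-Hochberg, with calls under 0.05. Library trends on transcript length (GENCODE M21) and GC content were removed with natural splines of 4 degrees of freedom. The 13 comparisons, the symbol rule, the gene lists and the named genes (isoform sets, complex II, core subunits, largest changes, and those whose call the correction alters) were chosen with earlier results of these data known. The fits were tested on simulated data with 200 changed genes. Libraries of the 2 cell types that share a title tag had correlations of deviations of 0.233, 0.314 and 0.065. Those with differing tags ran from -0.264 to 0.081. With 3 libraries per cell type at rest, these values cannot decide whether the tags pair libraries, and the main fits did not pair them. Values of 1 member are not reported here singly, though it is counted in all totals.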

Additional observations from a re-analysis of the deposited data

Results flagged for a closer look

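For 2 subunits the time course differed between pressure overload and swimming in a test of the difference itself, the interaction of stimulus and time over fibroblast libraries. These are 2 of 86 members tested, beside 4.31% of all genes called higher and 1.86% called lower. Ndufa4l2 stood 1.23 ± 0.262 higher on the log2 scale in the TAC course (10 against 3 days) than in the swim course (10 against 4 days; limma adjusted p = 0.0122), with the 3 libraries at 10 days of TAC between 16.84 and 19.33 FPKM and the 3 at 10 days of swimming between 8.09 and 12.93. Cox6b2 differed by 1.19 ± 0.322 (limma adjusted p = 0.0399) at levels of 0.3135 to 4.277 FPKM in these 4 groups, and TAC library 3 at 10 days held the highest of them. Without that library the difference was 0.84 (limma adjusted p = 0.0587), and leaving out other single libraries also ended the call. In the length-corrected values neither gene passed, at 0.69 for Ndufa4l2 (limma adjusted p = 0.0664) and 0.77 for Cox6b2 (limma adjusted p = 0.129). The early time points were 3 days in one course and 4 days in the other, so time and stimulus cannot be told apart there.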

How the results depend on the processing

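Over 13 comparisons and 200 alternatives, 162 counts of called members stayed within 1.5 times the reported one, 23 were smaller, 15 larger and 0 turned, and of 1266 alternatives for 88 single-gene results 1135 kept direction and call. For MI against sedentary fibroblasts, 1 member was called with the length trend or the length and GC trend removed, and 0 to 1 when single libraries were left out (1 without sedentary library 3). For 10 day swim against 10 day TAC the count of 23 was 12 with no filter on low values, 37 with libraries scaled to the same sum, 36 in a fit of only these groups, 36 in the authors' deposited table and 6 to 28 when single libraries were left out. For 4 day swim against 3 day TAC the count of 0 was 5 (lower) with libraries scaled to the same sum, 2 with the length or the length and GC trend removed, and 1 with a replicate block on the libraries whose title tags occur in both groups. The same block left 88 members called between the cell types and 0 for MI against sedentary. For 10 against 3 days of TAC the count of 2 was 1 with a pseudocount of 0.1, with no filter, with a filter at FPKM 5, with libraries scaled to the same median and in a fit of only these groups, 4 with the length or the length and GC trend removed, 4 in the authors' deposited table, and 1 to 3 when single libraries were left out (1 without 10 day library 2 or 3, or 3 day library 1 or 2). For the TAC course against the swim course the count of 2 was 1 with a pseudocount of 0.1, with no filter, with libraries scaled to the same sum and with the length and GC trend removed, and 1 to 4 when single libraries were left out (1 without 10 day swim library 1 or 3, 10 day TAC library 3, 3 day TAC library 1 or 2, or 4 day swim library 2, and 4 without 10 day TAC library 1 or 4 day swim library 3). Scaling to the same sum called 13.9% of all genes lower in 10 day swim against 10 day TAC. It called 12.6% lower in 4 day swim against 3 day TAC, and 1.6% higher between the courses. With the length and GC trend removed, 12.6% of all genes were higher for MI against sedentary and 6.05% for 4 day swim against 3 day TAC. The shares were 5.01% for 10 against 3 days of TAC and 3.44% between the courses.

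Signs turned for Cox6a1 between the cell types (-0.13 against the mean of the 7 fibroblast groups, -0.05 with length and GC removed), for Cox6b2 with length and GC removed (-0.55 between the cell types, -0.70 at 3 days of TAC and -0.59 at 4 days of swimming, where length alone gave -0.49), for Ndufs1 with length and GC removed (0.36 at 10 days of TAC, 0.29 at 4 days of swimming) and for Sdha at 4 days of swimming with libraries scaled to the same sum (-0.51). The cause of these changes was not tested. Without counts, absolute depth is unknown, and genes near 0 FPKM are the least certain.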
